A study of Mus musculus with 12 samples.

Results

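The 10 genes described here, of the nitric oxide and cGMP pathway, were followed in left ventricles of control mice and of mice modelling heart failure with preserved ejection fraction (HFpEF). They were Nos1, Nos2, Nos3, Ddah1, Ddah2, Gch1, Cav1, Prkg1, Pde5a and Pde9a. The members were chosen by symbol, and all 10 had a row among the 29564 genes of the deposited count table. All 10 also passed the filter on low counts that left 14333 genes for testing, although Nos1 did so with at most 22 reads in a library. Poly(A) RNA was sequenced from 12 wild-type mice labelled C57BL6, 1 library per mouse and 4 mice per group, and the study's methods describe male C57BL/6J mice that were 10 weeks old at purchase. The Control + Veh mice (libraries C1 to C4) were non-failing and received vehicle. The HFpEF + Veh mice (V1 to V4) received a high-fat diet and L-NAME, and then vehicle. The HFpEF + TYA-018 mice (T1 to T4) received the same diet and L-NAME, and then 15 mg/kg of the HDAC6 inhibitor TYA-018 by mouth. The vehicle was a mixture of DMSO, PEG and water in all groups. The series title names a single dose, whereas the treatment text of the labels names dosing every day for weeks. The study describes collection of the hearts hours after 1 dose, and here the groups are read as in the title. The labels gave no batch and no date, and animals were numbered in runs by group, so that cage or order of handling and group cannot be told apart.

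Nitric oxide is made from arginine by 3 nitric oxide synthases, neuronal (Nos1), inducible (Nos2) and endothelial (Nos3). It activates soluble guanylyl cyclase, which makes cGMP, and cGMP acts through its kinase (Prkg1) until phosphodiesterases such as Pde5a and Pde9a degrade it. In the heart this pathway relaxes vessels and tunes the relaxation of muscle cells. The synthases need the cofactor tetrahydrobiopterin, whose first and rate-limiting enzyme is Gch1. They are inhibited by methylated arginines, which Ddah1 is known to degrade and to which Ddah2 has also been linked, and the endothelial enzyme is held inactive by caveolin-1 (Cav1), the main coat protein of endothelial caveolae. L-NAME is itself an arginine analogue that blocks the synthases as enzymes, so that both HFpEF groups carried a blocker of the protein whose transcript was counted.

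All 10 genes are protein-coding in the GENCODE M21 annotation of GRCm38. Nos1 (chr5:117781032-117958840) and Nos3 (chr5:24364810-24384474) lie on the plus strand of chromosome 5. Nos2 lies at chr11:78920787-78960254, Ddah1 at chr3:145758675-145894277, Ddah2 at chr17:35059035-35062095, Cav1 at chr6:17306335-17341452, Pde5a at chr3:122728947-122859374 and Pde9a at chr17:31386210-31476310, all on the plus strand. Gch1 (chr14:47153895-47189413) and Prkg1 (chr19:30564489-31765033) lie on the minus strand. No member shared more than 2.03% of its 31-base words with transcripts of other genes on the same strand. Nos3 had 25.1% of its 31-base words on the opposite strand of other transcripts, where its exons overlap those of Gm15587 and Atg9b. The libraries were made with a stranded kit, and the strand setting of the counting is not given in the sources used here.

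Promoter windows of 300 bases (250 before and 50 after the start of transcription, RefSeq, GRCm38.p6) were found for 7 of the 10 genes, and there was no entry for Nos2, Nos3 and Pde9a. Those of Gch1, Ddah2 and Cav1 are shown because these genes passed the test in a comparison described later. They are written from 5′ to 3′ on the strand of the gene, and capitals mark the GC box, GGGCGG, on either strand. Gch1 lies at chr14:47189364-47189663 (minus strand), Ddah2 at chr17:35058785-35059084 (plus strand) and the first of 2 Cav1 entries at chr6:17306085-17306384 (plus strand).
Gch1: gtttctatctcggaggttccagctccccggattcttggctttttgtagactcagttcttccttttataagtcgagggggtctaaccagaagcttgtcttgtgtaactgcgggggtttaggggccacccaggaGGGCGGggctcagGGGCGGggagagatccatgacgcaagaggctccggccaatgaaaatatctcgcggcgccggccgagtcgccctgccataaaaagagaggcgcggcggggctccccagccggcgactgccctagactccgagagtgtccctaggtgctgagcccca
Ddah2: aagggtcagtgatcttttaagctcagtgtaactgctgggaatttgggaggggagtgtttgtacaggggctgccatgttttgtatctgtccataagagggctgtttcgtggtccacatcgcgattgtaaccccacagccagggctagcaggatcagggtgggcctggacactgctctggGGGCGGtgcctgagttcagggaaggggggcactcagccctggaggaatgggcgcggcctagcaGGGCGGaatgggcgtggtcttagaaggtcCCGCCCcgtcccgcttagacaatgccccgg
Cav1: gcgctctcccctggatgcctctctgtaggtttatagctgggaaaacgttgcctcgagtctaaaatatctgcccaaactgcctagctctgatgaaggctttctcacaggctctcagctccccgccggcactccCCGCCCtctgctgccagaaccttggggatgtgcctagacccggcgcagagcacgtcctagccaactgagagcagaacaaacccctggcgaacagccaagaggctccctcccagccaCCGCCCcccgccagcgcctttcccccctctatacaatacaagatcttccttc
The Gch1 window held 2 GC boxes, that of Ddah2 held 3 and that of Cav1 held 2. At least 1 GC box was present in 35.7% of the 32851 RefSeq promoter windows. The letters TATAAA, on either strand, occurred once in the Gch1 window and once in the Cav1 window, and in 13.6% of all windows. CCAAT, on either strand, occurred once in the Gch1 window and in 37.4% of all windows. GC content was 60.3% for Gch1, 59.7% for Ddah2 and 59.3% for Cav1. These matches describe the letters of the windows, and no binding was measured.

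The libraries held between 61.2 and 83.9 M estimated reads. Mitochondrially encoded genes took 37.0% to 40.6% of them in Control + Veh, 43.1% to 47.7% in HFpEF + Veh and 35.4% to 41.2% in HFpEF + TYA-018, so that this share was highest in all 4 HFpEF + Veh libraries. Red cell transcripts (5 genes) summed to 1553 to 2309 CPM (reads per 1e6 reads of the library) in Control + Veh, from 4785 to 14139 CPM in HFpEF + Veh and at most 3572 CPM in HFpEF + TYA-018. All 14 endothelial, 12 smooth muscle and pericyte, 6 cardiomyocyte and 6 fibroblast markers passed the filter, and no marker on any of these lists was at 0 in every library. The label of left ventricle thus went with transcripts of all these cell types. Atrial muscle markers summed to between 61.8 and 244 CPM, against 22224 to 32463 CPM for the cardiomyocyte markers. Values in the text are CPM after TMM scaling unless stated, differences are log2 fold changes from an edgeR quasi-likelihood fit to all 12 libraries, and the threshold for a call was a p of 0.05 after Benjamini-Hochberg adjustment over all 14333 genes.

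The members spanned a wide range of levels. Measured per transcript length as TPM, which scales reads by gene length and library size, Cav1 stood first with a mean over the 12 libraries of 60.9 TPM (range 46.0 to 85.6). Ddah2 was second (mean 6.88 TPM, range 2.65 to 11.1) and Nos3 came next (3.01 TPM, range 1.89 to 4.29). The ranges of these latter genes overlapped, whereas the lowest Cav1 value lay above every other member's value. Pde9a (mean 1.06 TPM), Gch1 (0.583 TPM), Ddah1 (0.510 TPM), Nos2 (0.490 TPM) and Prkg1 (0.289 TPM) followed, each overlapping its neighbour in the order. Pde5a had a mean of 0.156 TPM, and Nos1 was last with a mean of 0.00535 TPM. The order of the first 4 and of the last 3 genes was the same in each of the 3 groups. Only Gch1, Ddah1 and Nos2 changed places between groups, with Nos2 at place 6 in Control + Veh, at place 7 in HFpEF + Veh and at place 5 in HFpEF + TYA-018.

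**Figure D1:**
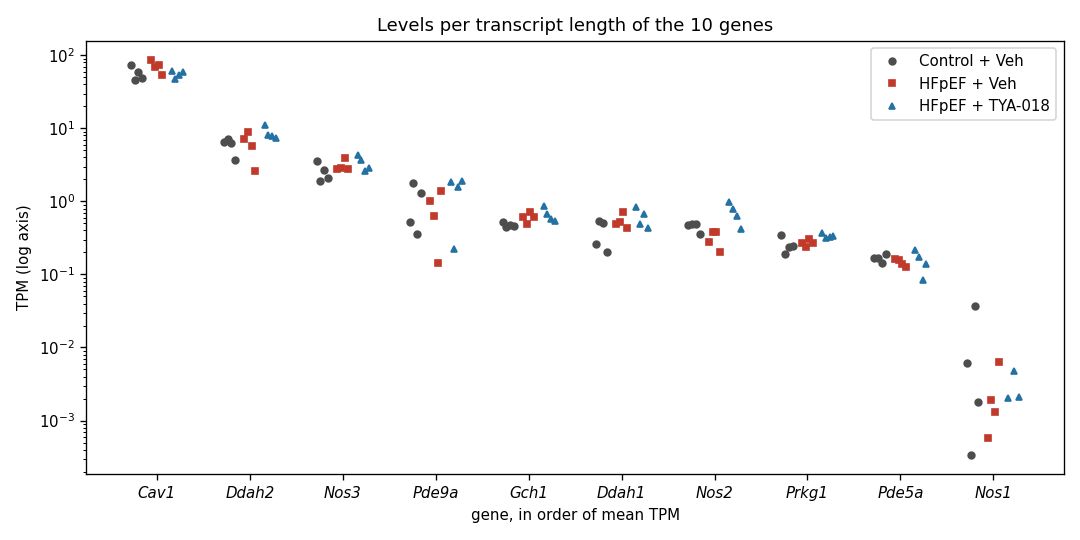
TPM of each gene (log axis) in each of the 12 libraries, with genes ordered by mean TPM and groups marked by symbol. Cav1 lies between 46.0 and 85.6 TPM and Nos1 below 0.037 TPM in every library. The single library in which Nos1 was listed at 0 (T4) cannot be drawn on a log axis.

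TPM divides by an effective length that the authors' software estimated for each library, and for several members this length was unstable. It ranged from 4884 to 8636 bases for Nos3, whose longest annotated transcript has 4132 bases, and from 467 to 1400 bases for Pde9a. For Ddah1 it ranged from 1965 to 4875 bases and for Ddah2 from 731 to 1796 bases, while for Gch1 it stayed between 3531 and 3788 bases. It varied most for Nos1, from 1442 to 19262 bases, against 10123 bases in its longest annotated transcript. For Nos2 it was 5351 to 6147 bases in HFpEF + Veh and 4127 to 5014 bases in HFpEF + TYA-018, without overlap. For Pde5a these ranges were 8816 to 10417 and 7555 to 8735 bases, and for Prkg1 7786 to 8499 and 6389 to 7455 bases. The Cav1 length ranged from 1256 to 2022 bases over all libraries. A difference between libraries in TPM of any member except Gch1 therefore holds a difference in the assumed length as well as in the reads. CPM does not use the length, and comparisons of one gene between groups were made on counts.

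Nos3, the endothelial synthase, was the synthase with the most reads. Its level was 52.1, 47.8, 47.9 and 51.3 CPM in C1 to C4. In HFpEF + Veh it was 56.2, 56.9, 55.7 and 54.7 CPM in V1 to V4, and in HFpEF + TYA-018 it was 49.8, 48.4, 49.6 and 47.5 CPM in T1 to T4. All 4 HFpEF + Veh libraries lay above all 8 others, and the 2 other groups overlapped. The group means were 49.8 ± 2.27, 55.8 ± 0.915 and 48.8 ± 1.07 CPM (SD, n = 4). Nos3 rose by 1.12-fold in HFpEF + Veh over Control + Veh (log2 fold change 0.17, SE 0.046, 95% interval 0.07 to 0.27, edgeR adjusted p = 0.0246). It fell in HFpEF + TYA-018 against HFpEF + Veh (log2 fold change -0.19, SE 0.046, 95% interval -0.29 to -0.09, edgeR adjusted p = 0.0141), although limma on log2(TPM + 1) and on log2(TPM + 0.1) gave this change the opposite sign, at 0.070 and 0.086. In these limma fits of this comparison the median over all genes was 0.167 and 0.344. Values of other genes from the same fits are to be read beside these medians. For Nos3, HFpEF + TYA-018 and Control + Veh differed by -0.03 (95% interval -0.13 to 0.07, edgeR adjusted p = 0.784). The first 2 comparisons share the HFpEF + Veh libraries, so their opposite directions are not independent of each other.

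These were small changes measured with many reads, since Nos3 had between 2956 and 4688 reads in a library. The rise in HFpEF + Veh lost its call in 5 of the 8 fits that left out 1 library. The adjusted p was 0.0689 without C2, 0.0759 without C3, 0.052 without V1, 0.0574 without V2 and 0.0541 without V3, at log2 fold changes of 0.15 to 0.19 over all 8 fits. The fall in HFpEF + TYA-018 kept its call in all 8 such fits (edgeR adjusted p between 0.0286 and 0.0441). With the effective lengths as an offset the rise had an adjusted p of 0.0852 and the fall one of 0.233, so neither was called. Of the 9 other ways of testing, 4 called the rise and 5 the fall.

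Nos2, the inducible synthase of macrophages and stressed tissue, went the other way in its point estimates and did not pass the test. It was at 6.94, 7.17, 7.59 and 5.48 CPM in C1 to C4, at 5.42, 7.25, 5.81 and 3.92 CPM in V1 to V4, and at 7.96, 9.61, 8.20 and 6.53 CPM in T1 to T4. The HFpEF + Veh libraries overlapped both other groups, and the lowest value of all was V4. Against Control + Veh the log2 difference in HFpEF + Veh was -0.28 (95% interval -0.66 to 0.10, edgeR adjusted p = 0.277). For HFpEF + TYA-018 against HFpEF + Veh it was 0.53 (SE 0.175, 95% interval 0.15 to 0.91, edgeR adjusted p = 0.0531), just short of the threshold. This second difference was called in 4 of 9 other ways of testing, namely DESeq2 (adjusted p = 0.0208), edgeR with the effective lengths as offset (adjusted p = 0.034), limma on log2(TPM + 1) (adjusted p = 0.0289) and limma on log2(TPM + 0.1). All of these but DESeq2 use the effective length. For Nos2 that length was longer in every HFpEF + Veh library than in every HFpEF + TYA-018 library. In the limma fits on log2(TPM + 1) and log2(TPM + 0.1) the median over all genes was 0.167 and 0.344. Limma on rescaled protein-coding TPM, where this median was -0.012, did not call Nos2. Without V2 the edgeR adjusted p was 0.0255 and without T4 it was 0.0358. Macrophage markers, 8 genes, summed to 76.5 to 110 CPM in Control + Veh. Their sums were 123 to 157 CPM in HFpEF + Veh and 88.5 to 114 CPM in HFpEF + TYA-018. The relation of Nos2 to these markers was not tested.

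Nos1, the neuronal synthase that heart muscle cells are known to carry at low level, was close to the limit of detection. Its reads numbered 21, 1, 10 and 6 in C1 to C4, 2, 7, 4 and 22 in V1 to V4, and 5, 12, 6 and 0 in T1 to T4. A count of 0 in T4 allows up to 3 reads, or 0.0447 CPM, by counting error only. The 95% interval of the log2 difference between HFpEF + Veh and Control + Veh ran from -1.97 to 2.17. Differences of either sign within this interval could not be told from 0 at this depth.

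Within the summed TPM of the 3 synthases, Nos3 made up 79.6% to 87.9% in Control + Veh, 88.5% to 93.1% in HFpEF + Veh and 80.2% to 87.0% in HFpEF + TYA-018. The Nos2 share was 11.9% to 20.4%, 6.68% to 11.5% and 12.98% to 19.8% in the same order. By this measure the HFpEF + Veh libraries did not overlap either other group. On reads without the length, the Nos2 share was 9.62% to 13.6% in Control + Veh, 6.64% to 11.3% in HFpEF + Veh and 12.1% to 16.5% in HFpEF + TYA-018. HFpEF + Veh then overlapped Control + Veh and still lay below HFpEF + TYA-018. These shares are given as a description without a test.

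**Figure D2:**
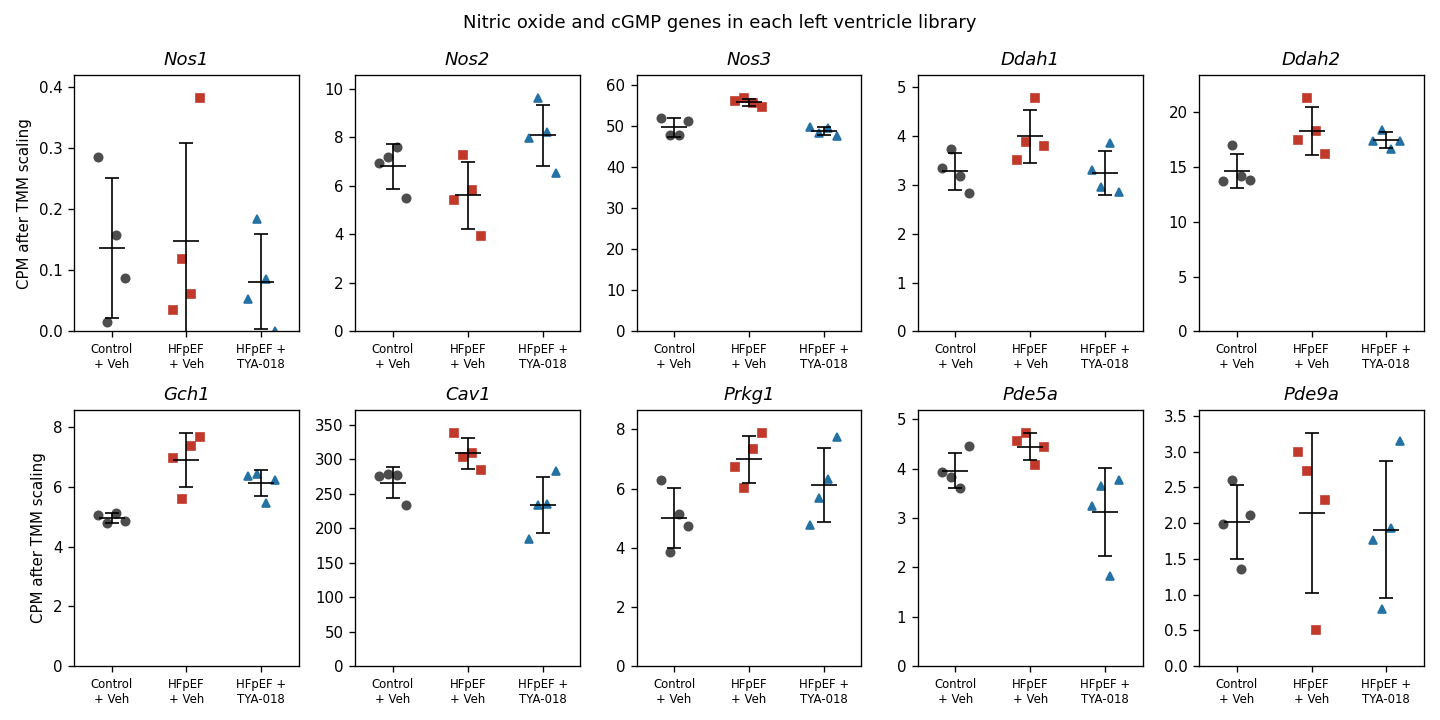
CPM after TMM scaling (linear axis from 0) of the 10 genes in each library, by group, with the mean as a horizontal mark and the SD as a bar (n = 4). All HFpEF + Veh points of Nos3 (54.7 to 56.9 CPM) lie above those of the other groups, and Nos1 stays below 0.39 CPM. The SD bar of Nos1 in HFpEF + Veh runs below the axis.

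Gch1, the gateway enzyme of tetrahydrobiopterin synthesis, had the smallest adjusted p of the members in any comparison. Its level was 5.05, 4.80, 5.13 and 4.85 CPM in C1 to C4, 6.95, 5.60, 7.35 and 7.66 CPM in V1 to V4, and 6.35, 6.42, 5.47 and 6.22 CPM in T1 to T4. Every library of either HFpEF group lay above every Control + Veh library, and the 2 HFpEF groups overlapped. Gch1 rose 1.39-fold in HFpEF + Veh over Control + Veh (log2 fold change 0.48, SE 0.102, 95% interval 0.25 to 0.70, edgeR adjusted p = 0.00747). The call held in all 8 fits that left out 1 library (edgeR adjusted p between 0.00281 and 0.0252) and in 7 of the 9 other ways of testing. The 2 that did not call it were limma on log2(TPM + 1) and on log2(TPM + 0.1), with log2 differences of the same sign. For HFpEF + TYA-018 against HFpEF + Veh the difference was -0.17 (95% interval -0.39 to 0.05, edgeR adjusted p = 0.26). Relative to Control + Veh, HFpEF + TYA-018 gave 0.30 (95% interval 0.08 to 0.52), which was not called (edgeR adjusted p = 0.102) although the groups did not overlap.

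Ddah2, linked to the removal of methylated arginines, was at 13.7, 17.0, 14.2 and 13.8 CPM in C1 to C4. It was at 17.5, 21.3, 18.2 and 16.1 CPM in V1 to V4 and at 17.4, 18.4, 16.7 and 17.4 CPM in T1 to T4. C2 stood above the other Control + Veh libraries and overlapped both HFpEF groups. Ddah2 rose 1.25-fold in HFpEF + Veh over Control + Veh by edgeR (log2 fold change 0.32, SE 0.092, 95% interval 0.12 to 0.52, adjusted p = 0.0287), whereas limma on log2(TPM + 1) and log2(TPM + 0.1) gave -0.013 and -0.029. It was called in 4 of the 9 other ways of testing. Leaving out C1, C3, C4, V2 or V3 gave adjusted p values of 0.0516, 0.0687, 0.0813, 0.069 and 0.061, all above 0.05. Between HFpEF + TYA-018 and HFpEF + Veh the difference was -0.07 (95% interval -0.27 to 0.13, edgeR adjusted p = 0.648). Ddah1, the sister enzyme with established activity on methylated arginines, ranged from 2.83 to 3.73 CPM in Control + Veh, from 3.51 to 4.77 CPM in HFpEF + Veh and 2.84 to 3.85 CPM in HFpEF + TYA-018. Its log2 difference was 0.29 in HFpEF + Veh over Control + Veh (edgeR adjusted p = 0.155) and -0.30 in HFpEF + TYA-018 against HFpEF + Veh (edgeR adjusted p = 0.146), and the groups overlapped in both.

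Cav1, which binds and restrains the endothelial synthase, was the most abundant member. Its level was 276, 279, 277 and 234 CPM in C1 to C4, 339, 304, 310 and 284 CPM in V1 to V4, and 184, 233, 236 and 283 CPM in T1 to T4. The HFpEF + Veh libraries lay above all others, with V4 (284 CPM) and T4 (283 CPM) close together. Cav1 fell in HFpEF + TYA-018 to 0.757 of its level in HFpEF + Veh (log2 fold change -0.40, SE 0.113, 95% interval -0.65 to -0.15, edgeR adjusted p = 0.0292). This call was lost in 6 of 8 fits, with adjusted p values of 0.0752 without V1, 0.0532 without V2, 0.0596 without V3, 0.0662 without T1, 0.0692 without T2 and 0.0576 without T3. The fall kept its sign under all 9 other ways of testing, with log2 values from -0.81 to -0.35, and was called in 6 of them. In HFpEF + Veh against Control + Veh the difference was 0.21 (95% interval -0.03 to 0.46, edgeR adjusted p = 0.197), which was not called although the groups did not overlap. HFpEF + TYA-018 differed from Control + Veh by -0.19 (95% interval -0.43 to 0.06, edgeR adjusted p = 0.369).

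Prkg1, the cGMP-dependent kinase of smooth muscle and other cells, was at 6.29, 3.84, 5.16 and 4.73 CPM in C1 to C4, at 6.74, 6.03, 7.34 and 7.88 CPM in V1 to V4, and at 4.76, 5.67, 6.32 and 7.74 CPM in T1 to T4. C1 was high among the Control + Veh libraries and overlapped HFpEF + Veh. Its log2 difference between HFpEF + Veh and Control + Veh was 0.48, of the size of that of Gch1 but with a larger error (SE 0.169, 95% interval 0.12 to 0.85, edgeR adjusted p = 0.0601). This difference was called in 1 of 8 fits that left out 1 library, without C1 (edgeR adjusted p = 0.0195). Of the 9 other ways of testing, 1 called it, namely DESeq2 (adjusted p = 0.0292). With the effective lengths as an offset it was 0.32 (adjusted p = 0.269), and the lowest value among the 9 was 0.021. The effective length of Prkg1 was 6667 to 7347 bases in Control + Veh and 7786 to 8499 bases in HFpEF + Veh, without overlap. In HFpEF + TYA-018 against HFpEF + Veh the difference was -0.19 (edgeR adjusted p = 0.451).

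Pde5a, the phosphodiesterase that is the target of sildenafil, was at 3.93, 3.83, 3.61 and 4.45 CPM in C1 to C4, at 4.56, 4.72, 4.07 and 4.44 CPM in V1 to V4, and at 3.25, 3.65, 1.82 and 3.77 CPM in T1 to T4. The HFpEF + TYA-018 libraries lay below all HFpEF + Veh libraries, with T3 lowest. The log2 difference between these groups was -0.51 (SE 0.187, 95% interval -0.92 to -0.10), which edgeR did not call (adjusted p = 0.0757). Of the 9 other ways of testing, 1 called it, namely DESeq2 (adjusted p = 0.0372). With the effective lengths as an offset the value was -0.40 (adjusted p = 0.259). Limma on log2(TPM + 1) and on log2(TPM + 0.1) gave the opposite sign, at 0.0072 and 0.013. The effective lengths of Pde5a did not overlap between these groups. Between HFpEF + Veh and Control + Veh the log2 difference of Pde5a was 0.17 (95% interval -0.23 to 0.57, edgeR adjusted p = 0.552). Pde9a, the phosphodiesterase linked to cGMP from natriuretic peptide signalling, varied more within groups than between them. It ranged from 1.36 to 2.61 CPM in Control + Veh, from 0.512 to 3.00 CPM in HFpEF + Veh and from 0.803 to 3.15 CPM in HFpEF + TYA-018. Its log2 differences lay between -0.16 and 0.08 in the 3 comparisons, and the 95% interval of the first comparison, from -0.95 to 1.12, was wide. No Pde9a count was a whole number in any library, although none of its 31-base words occurred in transcripts of other genes on the same strand and 5.74% occurred on the opposite strand.

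**Figure D3:**
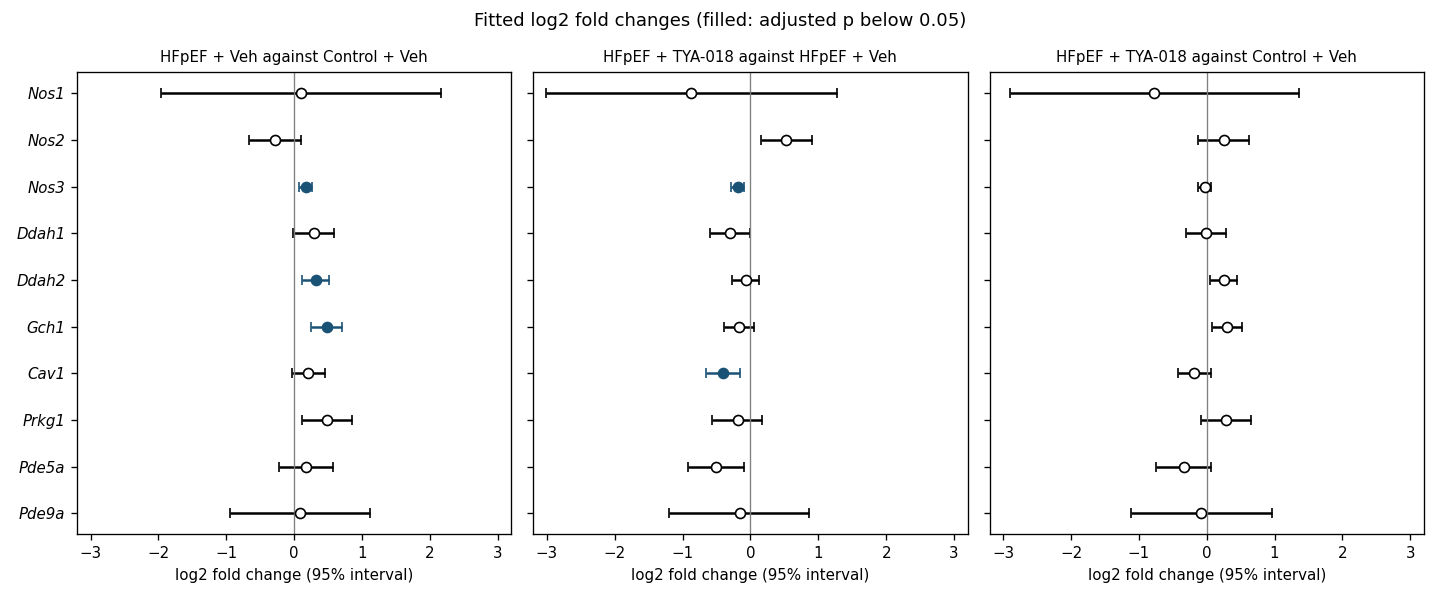
Log2 fold changes of the 10 genes from edgeR in the 3 comparisons, with 95% intervals and filled points where the adjusted p was under 0.05. Gch1 (0.48), Ddah2 (0.32) and Nos3 (0.17) are filled on the left, Nos3 (-0.19) and Cav1 (-0.40) in the middle, and none on the right.

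The members were then counted against all genes tested. In HFpEF + Veh against Control + Veh, 3 of 10 members were called (Gch1, Ddah2 and Nos3), all higher. Among all 14333 genes, 21.2% were called, 10.9% higher and 10.3% lower. The groups did not overlap for 3 members (Nos3, Gch1 and Cav1), and for 23.5% of all genes. The shares of members lay near these backgrounds. Of the 10 fitted values, 9 were above 0, with a median of 0.19 against -0.01 for all genes. The count was 4 with DESeq2, which added Prkg1. It was 1 with the effective lengths as offset, with only the 2 groups compared and with limma on rescaled protein-coding TPM, and 0 with limma on log2(TPM + 1) and log2(TPM + 0.1).

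In HFpEF + TYA-018 against HFpEF + Veh, 2 of 10 members were called (Nos3 and Cav1), both lower. Among all genes 19.3% were called, 8.93% higher and 10.4% lower. The groups did not overlap for 3 members (Nos3, Cav1 and Pde5a), against 25.1% of all genes, and these shares too lay near the background. Of the 10 values, 9 were below 0 with a median of -0.19, against 0.00 for all genes, in a comparison that shares the HFpEF + Veh libraries with the first. The count was 4 with DESeq2, which added Nos2 and Pde5a. It was 1 with limma on log2(TPM + 1) and on log2(TPM + 0.1), where the call was Nos2, and 0 with limma on rescaled protein-coding TPM.

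In HFpEF + TYA-018 against Control + Veh, 0 of 10 members were called by edgeR, and also 0 by DESeq2 and limma. An unadjusted edgeR p under 0.05 was found for 2 of 10 members, Gch1 and Ddah2, and for 3219 of all 14333 genes. Among all genes 5.86% were called, 3.12% higher and 2.74% lower. The groups did not overlap for 1 member (Gch1), against 14.8% of all genes. The median over members was -0.02, the same as over all genes.

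Transcripts of endothelial cells, the main site of Nos3 and Cav1, differed between the groups in the same direction as these genes. The 14 endothelial markers summed to 1326 to 1528 CPM in Control + Veh, from 1691 to 1900 CPM in HFpEF + Veh and 1296 to 1587 CPM in HFpEF + TYA-018. In HFpEF + Veh against Control + Veh 5 of 14 markers were called higher and 0 lower (median log2 change 0.27). In HFpEF + TYA-018 against HFpEF + Veh 0 were called higher and 7 lower (median -0.29), and against Control + Veh 0 were called higher and 1 lower. The marker sum was highest in T4 among the HFpEF + TYA-018 libraries, where Cav1 was highest (283 CPM) and Nos3 lowest (47.5 CPM) of the 4. Fibroblast markers, 6 genes, went the same way, with sums of 417 to 609.7 CPM in Control + Veh, of 578 to 813 CPM in HFpEF + Veh and of 391 to 575 CPM in HFpEF + TYA-018. Of these, 2 were called higher in HFpEF + Veh against Control + Veh (median 0.47) and 3 lower in HFpEF + TYA-018 against HFpEF + Veh (median -0.43). Of all genes, 10.9% were called higher in HFpEF + Veh against Control + Veh. In HFpEF + TYA-018 against HFpEF + Veh 10.4% of all genes were called lower. In bulk tissue a change in the number of cells of a type and a change in the RNA per cell cannot be told apart.

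Each vascular gene was therefore set against its markers, as the difference of its log2 CPM from the mean log2 CPM of the list. Relative to the endothelial markers, Nos3 differed by -0.11 between HFpEF + Veh and Control + Veh (two-sided exact permutation p = 0.0571, 0.171 adjusted over 12 such tests) and by 0.10 between HFpEF + TYA-018 and HFpEF + Veh (exact permutation p = 0.257, adjusted 0.381). In both comparisons the sign was the reverse of that of Nos3 itself. Cav1 differed from the markers by -0.058 (exact permutation p = 0.457) and -0.12 (exact permutation p = 0.286) in the same comparisons. None of the 12 tests passed the threshold after adjustment, but with 4 libraries against 4 the smallest two-sided exact permutation p is 0.0286, and 7 of the 12 tests would have had to reach it for any to pass. On log2(TPM + 0.1) the signs of the Nos3 differences were opposite, at 0.26 and -0.092, and Cav1 differed from the markers by 0.27 and -0.53.

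Smooth muscle and pericyte markers, 12 genes, summed to 1045 to 1154 CPM in Control + Veh, from 1156 to 1261 CPM in HFpEF + Veh and 932 to 1096 CPM in HFpEF + TYA-018. Of these, 1 was called higher in HFpEF + Veh against Control + Veh and 1 lower in HFpEF + TYA-018 against HFpEF + Veh. The sums follow the abundant markers, whereas the fitted values of 8 of the 12 were below 0 in HFpEF + Veh (median -0.09) and those of 8 were above 0 in HFpEF + TYA-018 against HFpEF + Veh (median 0.06). The mean log2 CPM of the list, which the ratios use, differed by -0.38 and 0.21 in these comparisons, opposite to the sums. Relative to that mean, Prkg1 differed by 0.87 between HFpEF + Veh and Control + Veh (exact permutation p = 0.0571, adjusted 0.171) and by -0.42 between HFpEF + TYA-018 and HFpEF + Veh (exact permutation p = 0.0571, adjusted 0.171). For Pde5a these differences were 0.55 (exact permutation p = 0.0571, adjusted 0.171) and -0.77 (exact permutation p = 0.0857, adjusted 0.206). The part of cell composition, of the mitochondrial share and of red cell transcripts in the results of the members was not tested further.

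**Figure D4:**
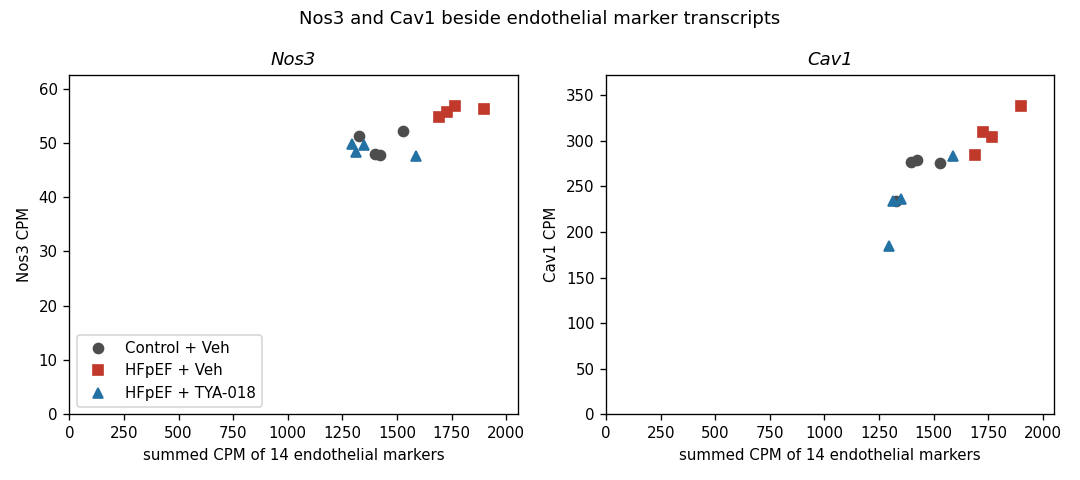
CPM of Nos3 and Cav1 (vertical axes from 0) against the summed CPM of 14 endothelial markers in the 12 libraries, marked by group. The HFpEF + Veh libraries hold the highest marker sums (1691 to 1900 CPM) and the highest values of both genes.

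A further 57 genes of the pathway, listed by role with earlier results of these data known, placed the members in context, and 52 of them were tested. In HFpEF + Veh against Control + Veh 8 were called higher and 7 lower (28.8% of those tested, against 21.2% of all genes), with a median of 0.03. In HFpEF + TYA-018 against HFpEF + Veh 4 were called higher and 4 lower (15.4%, against 19.3% of all genes), with a median of -0.01. Against Control + Veh, HFpEF + TYA-018 had 2 called higher and 1 lower (5.77%, against 5.86% of all genes). These shares over the whole list lay near those of all genes, calls went in both directions, and the medians lay near 0. Under 9 other ways of testing, 4 of these 26 calls held in all 9, namely Gchfr and Pde1c in HFpEF + Veh against Control + Veh and Mb and Cav2 in HFpEF + TYA-018 against HFpEF + Veh. Another 10 calls held in 7 of the 9, and 12 held in 6 or fewer.

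None of the 5 guanylyl cyclases tested was called by edgeR in any comparison, and 0 of them had an unadjusted p under 0.05. Among all genes, 21.2% were called in HFpEF + Veh against Control + Veh. In HFpEF + TYA-018 19.3% were called against HFpEF + Veh and 5.86% against Control + Veh. An unadjusted edgeR p under 0.05 was found for 5093, 4753 and 3219 of 14333 genes in the same order. With 5 genes, a count of 0 is a description only. Soluble guanylyl cyclase, the nitric oxide receptor, has the subunits Gucy1a1 and Gucy1b1, which the table lists under the older symbols Gucy1a3 and Gucy1b3. Gucy1a3 ranged from 17.5 to 22.9 CPM in Control + Veh, from 18.5 to 23.5 CPM in HFpEF + Veh and 14.7 to 21.1 CPM in HFpEF + TYA-018. Gucy1b3 ranged from 12.2 to 16.2, 13.5 to 15.7 and 11.5 to 15.0 CPM in the same groups. Of Gucy1a3 and Gucy1b3, the largest log2 difference was -0.22, for Gucy1a3 in HFpEF + TYA-018 against HFpEF + Veh (95% interval -0.47 to 0.04, edgeR adjusted p = 0.217). Gucy1a2, the other cyclase gene tested, had larger point estimates with wide errors. Its log2 difference was 1.13 in HFpEF + Veh against Control + Veh (SE 0.617, edgeR adjusted p = 0.211). In HFpEF + TYA-018 it was -0.37 against HFpEF + Veh (SE 0.598, edgeR adjusted p = 0.706) and 0.76 against Control + Veh (SE 0.615, edgeR adjusted p = 0.514). The natriuretic peptide receptors Npr1 and Npr2, which make cGMP at the membrane, had log2 differences between -0.03 and 0.01 in the 3 comparisons. For Npr1 in HFpEF + Veh against Control + Veh the 95% interval ran from -0.16 to 0.12.

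Around the cofactor, Gchfr and Qdpr differed between groups. Gchfr, the feedback regulator that restrains Gch1, was at 1.6005 to 3.23 CPM in Control + Veh, from 0.573 to 1.23 CPM in HFpEF + Veh and 1.22 to 1.57 CPM in HFpEF + TYA-018. It fell in HFpEF + Veh (log2 fold change -1.31, SE 0.258, edgeR adjusted p = 0.00487), while Gch1 rose in that comparison. Qdpr, which recycles the oxidised cofactor, was at 10.98 to 12.8 CPM in Control + Veh, from 10.7 to 13.4 CPM in HFpEF + Veh and 15.3 to 17.4 CPM in HFpEF + TYA-018. All HFpEF + TYA-018 libraries lay above the 8 others. Qdpr rose in HFpEF + TYA-018 against HFpEF + Veh (log2 fold change 0.41, SE 0.087, edgeR adjusted p = 0.00809) and against Control + Veh (0.42, SE 0.087, edgeR adjusted p = 0.0188). With the effective lengths as an offset neither was called. The second of these calls was lost without C4 (adjusted p = 0.0564) and without T1 (adjusted p = 0.0517).

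For the arginine supply, 2 of 5 genes were called lower in HFpEF + Veh and 0 of 5 in the other comparisons. Of all genes, 10.3% were called lower in HFpEF + Veh against Control + Veh. Arg1, the arginase that competes with the synthases for arginine, had 53, 20, 72 and 16 reads in C1 to C4, 5, 2, 3 and 7 in V1 to V4, and 5, 13, 53 and 28 in T1 to T4. It fell in HFpEF + Veh by edgeR (log2 fold change -3.05, 95% interval -4.78 to -1.32, adjusted p = 0.0185), on counts that were few and uneven among mice. The adjusted p was 0.0547 without C3, 0.0517 without V2 and 0.0563 without V3. Asl, which makes arginine from argininosuccinate, fell by 0.39 on the log2 scale (edgeR adjusted p = 0.0284), but with the effective lengths as an offset the value was 0.17 and on rescaled protein-coding TPM it was 0.10. Its call was also lost without C2, C3, C4, V2 or V3 (adjusted p up to 0.0734). None of the 3 tested genes of methylarginine formation and removal was called by edgeR. Of these, 1 had an unadjusted p under 0.05 in HFpEF + Veh against Control + Veh, as had 5093 of all 14333 genes.

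Among 11 genes listed as synthase-binding regulators or their partners, 4 were called higher and 0 lower in HFpEF + Veh against Control + Veh (median 0.11). This was 36.4% of them, while 10.9% of all genes were called higher. Nostrin, which traffics the endothelial synthase away from the membrane, was at 6.38 to 7.73 CPM in Control + Veh and 8.42 to 13.1 CPM in HFpEF + Veh. It rose with a log2 fold change of 0.72 (SE 0.134, edgeR adjusted p = 0.00376) and kept its call in all 8 fits without 1 library and in 7 of the 9 other ways of testing. The calmodulin gene Calm3 (0.27, edgeR adjusted p = 0.00988) rose on counts, although its value was below 0 with the effective lengths as an offset, at -0.15. The chaperone gene Hsp90aa1 (0.33, edgeR adjusted p = 0.0143) shares 51.4% of its 31-base words with other transcripts, most of them copies of the gene, and its value is uncertain for that reason. Dynll1, a dynein light chain that binds the neuronal synthase, rose by 0.35 (edgeR adjusted p = 0.0472) and lost its call in 7 of 8 fits without 1 library, the adjusted p being 0.0677 without C1, 0.0632 without C2, 0.0549 without C3, 0.0708 without C4, 0.0705 without V1, 0.118 without V2 and 0.0696 without V4.

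In HFpEF + TYA-018 against HFpEF + Veh, 1 of these 11 genes was called lower (9.09%, against 10.4% of all genes). Cav2, the partner of Cav1 in caveolae, was at 50.5, 47.4, 49.8 and 43.4 CPM in V1 to V4 and at 20.4, 29.8, 35.3 and 41.3 CPM in T1 to T4. As for Cav1, T1 was the lowest and T4 the highest of the HFpEF + TYA-018 libraries. Cav2 fell with a log2 fold change of -0.59 (SE 0.171, edgeR adjusted p = 0.0316), and the adjusted p was 0.0708 without V1, 0.0603 without V2, 0.0688 without V3 and 0.082 without T2.

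Of 9 other cyclic nucleotide phosphodiesterases, 1 was called in each comparison. This was 11.1% of them. The shares of all genes were 21.2% in HFpEF + Veh against Control + Veh and 19.3% in HFpEF + TYA-018 against HFpEF + Veh. In HFpEF + TYA-018 against Control + Veh that share was 5.86%. Pde1c, a calcium-regulated enzyme of muscle cells that degrades cGMP and cAMP, was at 21.4, 21.4, 21.9 and 24.2 CPM in C1 to C4, at 9.32, 12.6, 13.1 and 11.5 CPM in V1 to V4, and at 13.1, 14.3, 12.7 and 11.995 CPM in T1 to T4. All Control + Veh libraries lay far above the 8 libraries of HFpEF mice. Pde1c fell in HFpEF + Veh to 0.524 of its Control + Veh level (log2 fold change -0.93, SE 0.099, edgeR adjusted p = 0.000412). Compared with Control + Veh, it was lower in HFpEF + TYA-018 too (-0.77, SE 0.099, edgeR adjusted p = 0.00227), and both calls held in all fits that left out 1 library, although limma on log2(TPM + 1) and on log2(TPM + 0.1) did not call the second. Pde10a fell in HFpEF + TYA-018 against HFpEF + Veh by edgeR (-0.47, SE 0.134, adjusted p = 0.0292), while limma on log2(TPM + 1) gave 0.032. Its call was lost in 6 of 8 fits, without V1, V3, V4, T1, T3 or T4 (adjusted p between 0.0612 and 0.0706).

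Substrates of the cGMP kinase were called in both directions. In HFpEF + Veh against Control + Veh 3 of 9 tested substrates were higher and 3 lower, and the second kinase, Prkg2, was not called in any comparison. With Prkg2 this was 60.0% of 10 genes, against 21.2% of all genes (10.9% higher and 10.3% lower). In HFpEF + TYA-018 the share was 30.0% against HFpEF + Veh (19.3% of all genes) and 10.0% against Control + Veh (5.86% of all genes). Vasp, a cytoskeletal protein whose phosphorylation is a standard readout of the kinase, was at 19.0 to 22.01 CPM in Control + Veh and 25.5 to 27.7 CPM in HFpEF + Veh, and rose with a log2 fold change of 0.40 (SE 0.069, edgeR adjusted p = 0.00234). This call was lost with the effective lengths as an offset (adjusted p = 0.244) and in the 3 fits with limma, where log2(TPM + 1) gave 0.075. Compared with Control + Veh, Vasp was higher in HFpEF + TYA-018 too (0.26, edgeR adjusted p = 0.0454), a call lost without C2, C3, C4, T1, T2 or T3 (adjusted p between 0.0832 and 0.125). Rhoa, the small GTPase of vessel contraction, was at 135 to 141 CPM in Control + Veh, from 166 to 184 CPM in HFpEF + Veh and 128 to 147 CPM in HFpEF + TYA-018. Rhoa rose in HFpEF + Veh (0.36, edgeR adjusted p = 0.00198) and fell in HFpEF + TYA-018 against HFpEF + Veh (-0.37, edgeR adjusted p = 0.00228), the latter with the opposite sign, 0.066, by limma on log2(TPM + 1). Its rise was 0.016 by that measure (adjusted p = 0.958) and lost its call with the effective lengths as an offset (0.24, adjusted p = 0.135). Ppp1r12a, the targeting subunit of myosin phosphatase, rose with a log2 fold change of 0.67 (SE 0.217, edgeR adjusted p = 0.0459), and its adjusted p was 0.119 without C2, 0.0894 without C3, 0.094 without C4, 0.0944 without V1, 0.0941 without V3 and 0.0947 without V4.

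The substrates that were lower in HFpEF + Veh are known from contraction and its signals. Rgs2, which damps signalling from vasoconstrictor receptors, was at 28.1 to 36.1 CPM in Control + Veh and 16.7 to 26.3 CPM in HFpEF + Veh. It fell with a log2 fold change of -0.56 (SE 0.167, edgeR adjusted p = 0.0328). Its call was lost without C2, C3, V1, V3 or V4 (adjusted p between 0.0567 and 0.0878). Mybpc3, a myosin-binding protein of the sarcomere, was lower in HFpEF + Veh (-0.30, SE 0.075, edgeR adjusted p = 0.0148) and higher in HFpEF + TYA-018 than in HFpEF + Veh (0.36, SE 0.075, edgeR adjusted p = 0.00722). Both of its calls held in all fits that left out 1 library, but both were lost with the effective lengths as an offset (adjusted p = 0.21 and 0.086) and on rescaled protein-coding TPM, and limma on log2(TPM + 1) did not call the first (adjusted p = 0.206). Phospholamban (Pln), the brake on the calcium pump of the sarcoplasmic reticulum, was likewise lower in HFpEF + Veh (-0.24, edgeR adjusted p = 0.0497) and higher in HFpEF + TYA-018 (0.29, edgeR adjusted p = 0.0255). Without 1 library the first of these was lost in 7 of 8 fits (without C2, C3, C4 or any V library, adjusted p up to 0.112) and the second in 6 of 8 (without V1, V2, V3, T2, T3 or T4, adjusted p up to 0.0761). Pln has 59.5% of its 31-base words on the opposite strand of other transcripts. Of 6 cardiomyocyte markers, 4 were called lower and 1 higher in HFpEF + Veh against Control + Veh (median -0.52). The shares of all genes were 10.3% lower and 10.9% higher.

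Of 4 genes that remove nitric oxide, Cyb5r3, a reductase that keeps globins able to react with it, rose in HFpEF + Veh (0.23, edgeR adjusted p = 0.0279). It fell in HFpEF + TYA-018 (-0.23, edgeR adjusted p = 0.0323), with the opposite sign, 0.033, by limma on log2(TPM + 1). The first of these calls was lost without C3, C4, V2 or V4 (adjusted p between 0.0558 and 0.0724) and the second without V2, V4, T1, T2 or T3 (adjusted p between 0.0691 and 0.0905). Myoglobin (Mb), the oxygen-binding protein of heart muscle, was at 1712 to 2196 CPM in HFpEF + Veh and 2715 to 4530.3 CPM in HFpEF + TYA-018. These groups did not overlap, as for 25.1% of all genes, and Mb rose with a log2 fold change of 0.86 (SE 0.168, edgeR adjusted p = 0.0059). Control + Veh, at 2147.5 to 3400 CPM, overlapped both groups. Against Control + Veh, Mb was not called in HFpEF + Veh (-0.38, edgeR adjusted p = 0.125) or in HFpEF + TYA-018 (0.48, edgeR adjusted p = 0.117). Of the 31-base words of Mb, 27.7% lie on the opposite strand of other transcripts.

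**Figure D5:**
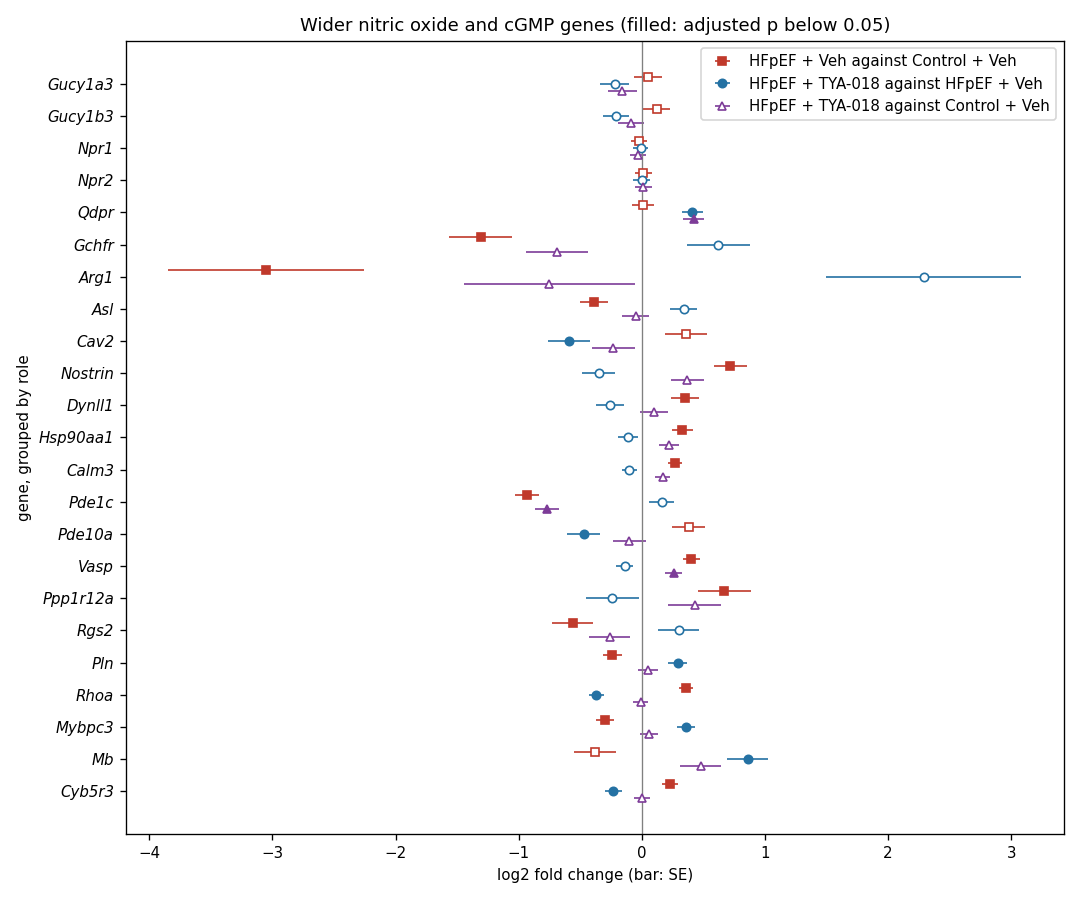
Log2 fold changes from edgeR (points) and their SE (bars) for the wider pathway genes named in the text, without Gucy1a2 and Prkg2. Genes are ordered by role from guanylyl cyclases at the top to nitric oxide removal at the bottom. Points of the 3 comparisons are filled where the adjusted p was under 0.05. Pde1c is filled on the left of 0 in both comparisons with Control + Veh (-0.93 and -0.77), and the 4 cyclase genes have no filled point.

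Across the 12 libraries, the genes whose log2 CPM followed each member most closely are given as a description. For Nos3 they were Pid1 (Pearson's r 0.963), a row that the table names by the number 45177 (0.946) and Taok3 (0.945). The 3 genes nearest to Cav1 were Klhl4 (0.972), Cyyr1 (0.954) and Cav2 (0.950), the last of which is its partner in caveolae. Gch1 was followed by Tax1bp1 (0.927), Kank1 (0.924) and Becn1 (0.920), and Ddah2 by Capg (0.933), Icam2 (0.925) and Trp53i11 (0.924). Those nearest to Nos2 were Tmem203 (0.953), Cct6b (0.925) and Gmppb (0.898), and to Prkg1 they were Rab10 (0.954), Kpna4 (0.949) and Ppp2r5c (0.942). For Pde5a the genes were Gm7367 (0.944), Gm9830 (0.931) and Ttc27 (0.915), and for Ddah1 they were Ampd3 (0.882), Gabpb1 (0.870) and Fam124b (0.855). For Pde9a they were Nxpe4 (0.861), Cd300a (0.842) and Gpr173 (0.817), and for Nos1 they were Psd4 (0.880) and Podn (0.876), both of these members having few reads. The libraries in these correlations share their groups and their composition.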

How the data were processed

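Poly(A) RNA of 12 left ventricle libraries (4 per group, groups from the sample labels) was quantified by the authors with Salmon 1.6.0 with corrections for sequence, GC content and position, on mouse GENCODE transcripts of GRCm38 per the methods, although the labels name the human build hg38. The labels and the methods also differ in read length and layout. The deposited tables held estimated counts (not normalised), TPM, and another value, the effective length of each gene, per library. All value columns were used (0 left out). The 10 members and all gene and marker lists were chosen with earlier results of these data known.

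Estimated counts were rounded and tested in edgeR 4.0.16 (R 4.3.3) after filterByExpr (minimum count 10) and TMM scaling, with 1 quasi-likelihood fit to the 12 libraries (9 residual degrees of freedom) and Benjamini-Hochberg adjustment over 14333 genes. The procedure was tested on simulated data. Ratios to markers used log2 CPM (prior count 2) and two-sided exact permutation tests. Alternatives were DESeq2 1.42.0, RLE factors, no filter on low counts, effective lengths as offset, mitochondrial genes left out, only the 2 groups compared, limma 3.58.1 on log2(TPM + 1), on log2(TPM + 0.1) and on TPM of protein-coding genes rescaled as in the study, and leaving out each library. Named genes were all members, up to 8 called genes of the wider list per comparison and direction by size of change, 4 cyclase genes (Gucy1a3, Gucy1b3, Npr1 and Npr2), and the 3 genes most correlated with each member. Gucy1a2 was also named, as the other cyclase gene tested, and Prkg2 as the second kinase. Some genes that these rules would name are not reported here and were left out of the lists. Totals of 61.2 to 83.9 M reads set the depth, and floors cover counting error only. P-values weigh group differences against the spread between mice, and do not separate group from cage or order of handling.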

Additional observations from a re-analysis of the deposited data

Results flagged for a closer look

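In 6 of the 99 sets of 4 libraries examined (33 genes in 3 groups), 1 library lay far from the other 3 beyond the critical value at 95% of Dixon's test, and chance gives about 1 in 20. For Ddah2 in Control + Veh, C2 was at 17.0 CPM and the others at 13.7 to 14.2 CPM. For Cav1 in Control + Veh, C4 was at 234 CPM and the others at 276 to 279 CPM. Nostrin in HFpEF + Veh was at 8.42 CPM in V4 and at 12.5 to 13.1 CPM in the others. Dynll1 in Control + Veh was at 23.6 CPM in C1 and at 32.4 to 33.2 CPM in the others. Pln in HFpEF + TYA-018 was at 1595 CPM in T1 and at 2015 to 2027 CPM in the others. Pde10a in HFpEF + Veh was at 2.51 CPM in V2 and at 3.04 to 3.13 CPM in the others.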

How the results depend on the processing

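No paired analysis was possible because the groups had no animal numbers in common. In the following, the model comparison is HFpEF + Veh against Control + Veh and the dose comparison is HFpEF + TYA-018 against HFpEF + Veh. RLE factors and leaving out mitochondrial genes turned no sign and moved no count of calls by over 1.5 times. The edgeR calls of Gch1 in the model comparison and of Nos3 in the dose comparison held without any 1 library. Of the 26 calls in the wider list, 13 held in every fit without 1 library and 13 were lost in at least 1. Limma on TPM moved the median log2 change of all genes to 0.344 in the dose comparison and -0.171 in the model comparison with log2(TPM + 0.1), and to 0.167 and -0.069 with log2(TPM + 1), so that small differences of the members lie within this shift. With limma on rescaled protein-coding TPM these medians were -0.012 in the dose comparison and 0.022 in the model comparison. The cause of the changes was not tested. Depth limits Nos1 and Arg1.

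With DESeq2, the dose comparison called 4 of the members. By DESeq2, the comparison of treated HFpEF with control called 1513 of all genes and 6 of the wider list. The dose comparison, with no filter on low counts, called 5 of the wider list. With effective lengths as an offset, the model comparison called 1450 of all genes and 1 of the members. It also turned the sign of Nos1 (-1.36), Pde9a (-0.062), Gucy1a3 (-0.15), Calm3 (-0.15) and Asl (0.17). By effective lengths as an offset, the dose comparison called 1245 of all genes. Signs turned for Ddah2 (0.044), Pde9a (0.34), Npr1 (0.030) and Npr2 (-0.20). The comparison of treated HFpEF with control, with effective lengths as an offset, called 205 of all genes and 1 of the wider list. There Nos3 (0.16), Ddah1 (0.44) and Pde9a (0.28) changed sign. With a fit of only the 2 groups compared, the model comparison called 1 of the members. By limma on log2(TPM + 1), the model comparison called 172 of all genes, 0 of the members and 3 of the wider list. It also turned the sign of Nos1 (-0.012), Ddah2 (-0.013), Pde5a (-0.027), Pde9a (-0.15), Gucy1a3 (-0.23), Gucy1b3 (-0.065), Npr2 (-0.0084) and Calm3 (-0.56). The dose comparison, with limma on log2(TPM + 1), called 1 of the members. Signs turned for Nos3 (0.070), Ddah1 (0.063), Ddah2 (0.50), Gch1 (0.044), Prkg1 (0.073), Pde5a (0.0072), Pde9a (0.38), Gucy1a3 (0.24), Npr1 (0.39), Rhoa (0.066), Cyb5r3 (0.033) and Pde10a (0.032). With limma on log2(TPM + 1), the comparison of treated HFpEF with control called 9 of all genes and 0 of the wider list. It also turned the sign of Nos3 (0.29), Ddah1 (0.23), Pde9a (0.24), Gucy1a3 (0.0089) and Npr1 (0.039). By limma on log2(TPM + 0.1), the model comparison called 301 of all genes, 0 of the members and 3 of the wider list. The sign turned there for Nos1 (-0.11), Ddah2 (-0.029), Pde5a (-0.12), Pde9a (-0.35), Gucy1a3 (-0.36), Gucy1b3 (-0.10), Npr2 (-0.014) and Calm3 (-0.65). The dose comparison, with limma on log2(TPM + 0.1), called 1 of the members. It also turned the sign of Nos3 (0.086), Ddah1 (0.14), Ddah2 (0.59), Gch1 (0.093), Prkg1 (0.24), Pde5a (0.013), Pde9a (0.71), Gucy1a3 (0.37), Npr1 (0.44), Rhoa (0.068), Cyb5r3 (0.034) and Pde10a (0.16). With limma on log2(TPM + 0.1), the comparison of treated HFpEF with control called 11 of all genes and 0 of the wider list. Signs turned for Nos3 (0.39), Ddah1 (0.61), Pde9a (0.36), Gucy1a3 (0.011) and Npr1 (0.039). By limma on rescaled protein-coding TPM, the model comparison called 1055 of all genes, 1 of the members and 8 of the wider list. It also turned the sign of Nos1 (-0.062), Pde9a (-0.079), Calm3 (-0.38) and Asl (0.10). The dose comparison, with limma on rescaled protein-coding TPM, called 742 of all genes, 0 of the members and 5 of the wider list. The sign turned there for Ddah2 (0.13), Pde9a (0.28) and Npr2 (-0.18). With limma on rescaled protein-coding TPM, the comparison of treated HFpEF with control called 94 of all genes and 1 of the wider list. There Nos3 (0.19), Ddah1 (0.38) and Pde9a (0.21) changed sign. By values on log2(TPM + 0.1), the model comparison turned the sign of Nos3 relative to endothelial markers (0.26) and Cav1 relative to endothelial markers (0.27). The dose comparison, with values on log2(TPM + 0.1), turned the sign of Nos3 relative to endothelial markers (-0.092). There Cav1 relative to endothelial markers (-0.53) had an unadjusted exact permutation p under 0.05. With values on log2(TPM + 0.1), the comparison of treated HFpEF with control turned the sign of Nos3 relative to endothelial markers (0.17). The model comparison without 1 library at a time gave ranges for Npr2 -0.044 to 0.036, Nos1 -0.94 to 0.75, Npr1 -0.053 to 0.046, member calls 1 to 3, wider list calls 8 to 18, Pde9a -0.12 to 0.41, calls over all genes 1986 to 3992, Gucy1a3 -0.014 to 0.13, Nos3 relative to endothelial markers -0.13 to -0.062 and Prkg1 relative to smooth muscle and pericyte markers 0.72 to 1.097. The dose comparison without 1 library at a time gave ranges for member calls 1 to 3, wider list calls 5 to 8, Pde9a -0.51 to 0.090, Npr1 -0.024 to 0.022, Ddah2 -0.12 to 0.014, Npr2 -0.024 to 0.056, Nos1 -1.62 to 0.17, calls over all genes 1485 to 2729, Nos3 relative to endothelial markers 0.070 to 0.18 and Pde5a relative to smooth muscle and pericyte markers -0.99 to -0.48. The comparison of treated HFpEF with control without 1 library at a time gave ranges for Npr2 -0.035 to 0.049, calls over all genes 308 to 809, Ddah1 -0.11 to 0.056, Pde9a -0.42 to 0.17, Npr1 -0.059 to 0.040, wider list calls 1 to 3, Nos3 relative to endothelial markers -0.036 to 0.077, Prkg1 relative to smooth muscle and pericyte markers 0.30 to 0.68 and Pde5a relative to smooth muscle and pericyte markers -0.45 to 0.069.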
